A study of Rattus norvegicus with 12 samples.

Results

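The miR-17-92 and miR-106b-25 clusters were examined in the soleus muscle of adult rats, over 9 miRNAs of the array. These were rno-miR-17-5p, rno-miR-18a, rno-miR-19a, rno-miR-19b, rno-miR-20a and rno-miR-92a of the first cluster, and rno-miR-106b, rno-miR-93 and rno-miR-25 of the second (the rat prefix rno is left out below). The rule takes them by name, with the star strands left out, and they were 9 of the 677 rat miRNAs measured. Soleus is a hind limb muscle made up mostly of slow fibres. The 12 rats were male Sprague-Dawley offspring, 1 year old, each on its own array. Of these, 6 were born to dams on a control chow and 6 to dams on a high fat diet in pregnancy and lactation (and, per the study's methods, already before mating). By the same methods all offspring ate chow after weaning. The diet therefore differed between the mothers, not between the adult rats at the time of sampling, and the labels do not give which rats were littermates. Values below are scaled signals: the intensity of each miRNA relative to its array's 75th percentile among those 162 miRNAs that every array detected, brought back to array units, with a floor at 5.17 for miRNAs that were not detected.

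A miRNA cluster is a stretch of the genome from which several miRNAs are cut out of 1 long transcript. The miR-17-92 cluster is driven by Myc and E2F factors and is known for promoting the growth of dividing cells, blood cell development and heart and lung development, and its targets include the pro-apoptotic Bim and the cell cycle inhibitor p21. The miR-106b-25 cluster lies in an intron of Mcm7, a helicase subunit of DNA replication, and has seed families in common with miR-17-92. A miRNA finds its targets mainly through its seed, the bases from 2 to 8, so miRNAs with the same seed can act on the same messenger RNAs whichever cluster they come from.

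The mature sequences are given because they show how the members fall into families across the clusters and how little some of them differ. They are those of RefSeq for the rat assembly GRCr8, in which 9 of 9 members were found, written 5′ to 3′ with the seed in capitals. The 9 members had 4 seeds. The first family, with the seed AAAGUGC, takes members from both clusters.
miR-17-5p: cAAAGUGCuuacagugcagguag
miR-20a: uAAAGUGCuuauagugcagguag
miR-106b: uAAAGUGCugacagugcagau
miR-93: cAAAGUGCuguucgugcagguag
The miR-18 seed differs from the first one and has 1 member here.
miR-18a: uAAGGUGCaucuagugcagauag
The miR-19 family is found in miR-17-92 and has no member in miR-106b-25.
miR-19a: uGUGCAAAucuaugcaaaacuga
miR-19b: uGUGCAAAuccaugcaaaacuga
The miR-25 family again takes 1 member from each cluster.
miR-92a: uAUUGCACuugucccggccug
miR-25: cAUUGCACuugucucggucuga

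Aligned from the 5′ end without gaps, miR-19a and miR-19b differed at 1 of 23 bases. The pair miR-17-5p and miR-20a differed at 2 of 23 bases, miR-17-5p and miR-106b at 3 of 21, and miR-17-5p and miR-93 at 4 of 23. The members of the miR-25 family, miR-92a and miR-25, differed at 3 of 21 bases. Whether the array's probes tell such close sequences apart was not tested.

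In GRCr8 the 6 genes of miR-17-92 were spread from the first mature miRNA to the last over chr15:98587861-98588622 on the plus strand, in the order Mir17, Mir18a, Mir19a, Mir20a, Mir19b1 and Mir92a1. The 3 genes of miR-106b-25 lay at chr12:22156652-22157123 on the minus strand in the order Mir106b, Mir93 and Mir25, all 3 inside Mcm7 and on its strand. A related cluster, miR-106a-363, lay at chrX:137342788-137343637 on the minus strand with the genes Mir106a, Mir20b, Mir19b2, Mir92a2 and Mir363. Mature miR-17-5p, miR-19b and miR-92a each had 2 genes of identical mature sequence, with 1 copy on chromosome 15 and 1 on chromosome X. The array measures the mature miRNA, so the copies cannot be told apart, and the signals of these members may come from either cluster.

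The arrays of control rats detected 177 to 220 miRNAs each and those of the high fat group 190 to 212, and the 75th percentile used for scaling ran from 864 to 1403 on the first slide and from 1230 to 1911 on the second, each slide holding 3 rats of each group. Of the 6 muscle markers on the array, 5 were detected on all 12 arrays, and miR-208b-3p was missing in 1 rat, H3, of the high fat group. In H3 the slow-fibre miR-499 was at 366 against 4553 to 9137 in control rats. Its summed endothelial markers were at 2121 against 4345 to 5685 in the other high fat rats, its smooth muscle markers at 2859 against 4860 to 6479, and its red cell markers at 3295 against 458 to 1522. Control rats lay at 4665 to 5895, 5433 to 6641 and 643 to 2636 in the same order. H3 stood apart from the other rats in the endothelial and smooth muscle markers. Its red cell sum was the highest, with the control rat A89 next at 2636. Of the other muscle markers, miR-206 was also low in H3, at 9354 against 34466 to 57293 in control rats. By contrast, H3 had the highest miR-1 of all 12 rats, at 136123, and the highest miR-133a of its group, at 2976. miR-133b of H3 was at neither end of its group. Its summed muscle markers, at 245085, lay inside the control range of 165393 to 289822. The low miR-499 and undetected miR-208b-3p of H3, both cut from myosin genes of slow fibres, went against the soleus label of its sample. Its values, miR-18a and miR-93 among them, are given under that label, and the main results that rest on it are given with and without it. Values within the first slide and correlations within the high fat group include H3 and are not given without it.

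Nearly the whole of both clusters was detected in soleus. Of the 9 members, 8 were detected on all 12 arrays, and miR-18a in H3 alone. Its listed signal there was 10.8 with a scanner error of 2.84, or 11.2 after scaling, so that it was detected in 0 of 6 control and 1 of 6 high fat rats (two-sided Fisher's exact test, p = 1). Of the 12 rows of the array for the partner strands, those cut from the other arm of the same hairpins, 0 were detected on any array. The scanner's own error of the detected members ran from 7.42% to 26.2% of the signal, the highest being that of miR-18a. Signals of different miRNAs depend on their probes, so members are not ranked by level here, and each is compared with itself across rats.

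Within miR-17-92, the signal of miR-17-5p, which names the largest seed family, was lowest at 37.7, 38.8 in the median and highest at 58.1 in control rats. In offspring of high fat-fed dams it was lowest at 33.8, 40.4 in the median and highest at 49.5. The control maximum belonged to a single rat, A89, while the other 5 control rats lay at 43.1 or lower, and 5 of the 6 high fat rats lay above the control median although the high fat mean was lower. The ranges overlapped, and the mean log2 difference, high fat minus control, was -0.05 (standard error 0.14, limma adjusted p = 0.914).

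For miR-20a, which shares the seed of miR-17-5p, the lowest, median and highest signals were 174, 223 and 270 in control rats. They were 178, 224 and 251 in the high fat group. The groups covered almost the same range, with 3 of 6 high fat rats above the control median, and the difference of -0.02 on the log2 scale was below its standard error of 0.14 (limma adjusted p = 0.978).

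The miR-19 pair shares its own seed, which no other member carries. Control rats gave 47.8, 71.1 and 98.3 as lowest, median and highest signal of miR-19a, and high fat rats 57.3, 69.3 and 73.9. The spread was wide in the control group, from rat A75 to rat C73, and narrow in the high fat group, which lay entirely inside it. For miR-19b the corresponding signals were 461, 580 and 727 in control rats and 464, 534 and 570 in high fat rats. The same 2 control rats, A75 and C73, were at the ends, and 0 of 6 high fat rats lay above the control median of miR-19b. Its log2 difference of -0.16 (standard error 0.13) was the furthest below 0 of the 8 members, without passing the test (limma adjusted p = 0.685, exact two-sided permutation p = 0.152), and it was -0.04 without H3, which had the lowest miR-19b of its group. The log2 difference of miR-19a was -0.06 (standard error 0.17, limma adjusted p = 0.914).

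The last member of the cluster, miR-92a, is known for restraining vessel growth from endothelial cells. Its lowest, median and highest signals were 149, 183 and 201 in control rats and 122, 175 and 225 in high fat rats. Here the high fat group was the wider one, with its lowest value in A37 and its highest in H3, both outside the control range. The log2 difference was -0.04 (standard error 0.16, limma adjusted p = 0.953).

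In the miR-106b-25 cluster, miR-106b was at 436, 464 and 577 in control rats (lowest, median and highest) and at 405, 453 and 549 in high fat rats. The highest value belonged to C73 and the lowest to A37, with the remaining rats of both groups between them. The log2 difference of miR-106b was -0.04 (standard error 0.13, limma adjusted p = 0.914).

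The middle gene of this cluster gives miR-93, with the seed of miR-17-5p. Its signals were 67.0, 74.5 and 90.8 in control rats and 66.6, 74.8 and 133 in high fat rats. The medians were nearly equal, and the highest value, in H3, lay far above the next high fat rat at 85.4. miR-93 was the 1 member whose mean was higher in the high fat group with this scaling, by 0.13 on the log2 scale (standard error 0.17, limma adjusted p = 0.775). The difference was 0.07 without H3.

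For miR-25, the lowest, median and highest signals were 252, 294 and 307 in control rats. They were 202, 282 and 333 in high fat rats. The control group was narrow and lay inside the high fat range, which ran from A37 to H1. The log2 difference was -0.07 (standard error 0.14, limma adjusted p = 0.880).

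**Figure D1:**
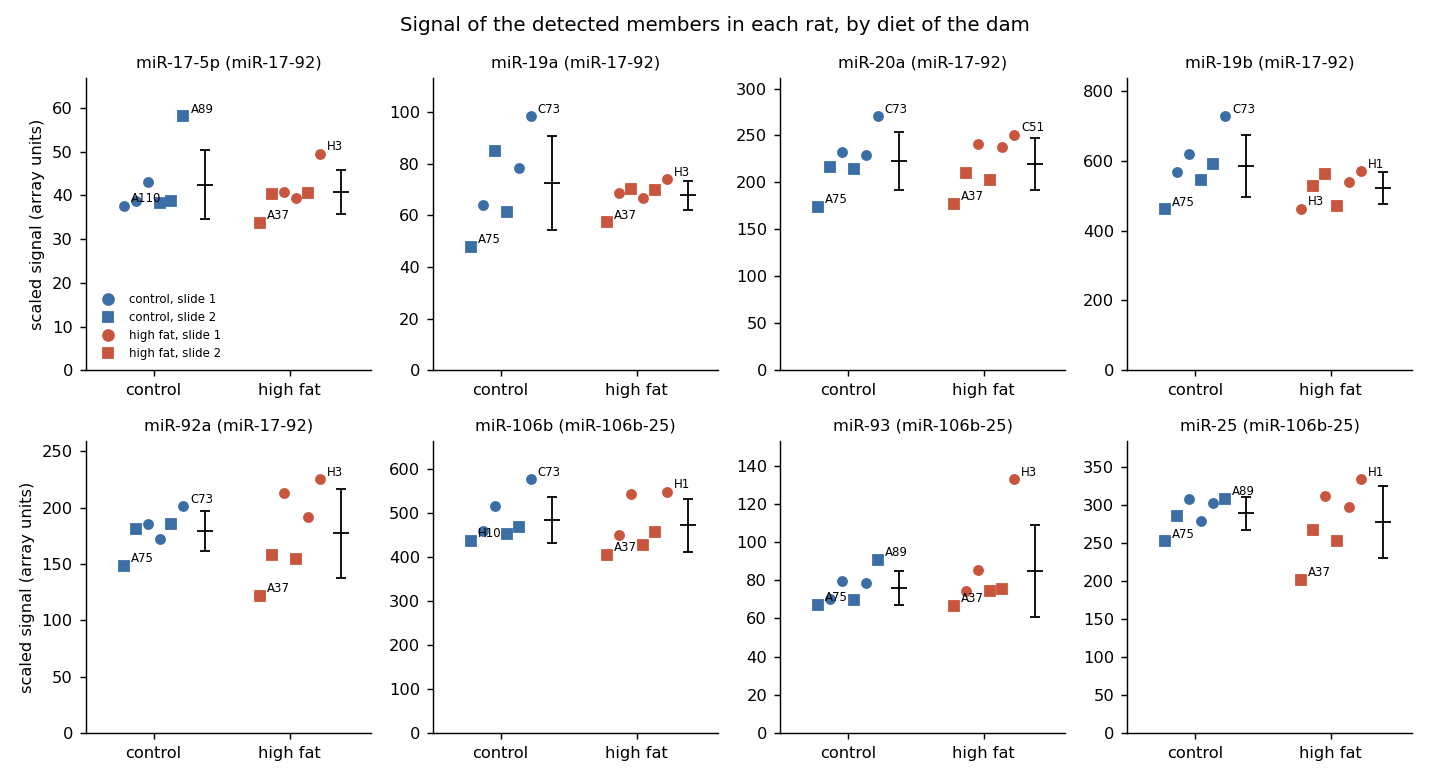
Scaled signal (array units, axis from 0) of the 8 members detected on all arrays, 1 point per rat, by diet of the dam, with circles for the first slide and squares for the second; the lowest and highest rat of each group are named, and the bar beside each group is the mean with its SD (n = 6). The groups overlap in all 8 panels. The single points with the largest gap to the next rat, as a share of their group's range, are A89 in miR-17-5p at 58.1 and H3 in miR-93 at 133.

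The comparison of the diets asked whether the mother's diet left a mark on these miRNAs in the muscle of grown offspring. limma called 0 of the 8 tested members at an adjusted p under 0.05, against 0% of the 193 miRNAs detected on at least 6 arrays. At an unadjusted p under 0.05 it called 0 members, against 1.04% of those tested (2 of 193), and the methods' t-test gave the same counts, 0 members and 2 of 193, with 0 after adjustment. The groups overlapped in 8 of 8 members, where 0% of the 193 had groups that did not overlap. Over the 8 members the exact two-sided permutation p ran from 0.152 to 0.885 over all 924 assignments of the rats, and from 0.150 to 0.825 over the 400 assignments that keep each slide balanced. With the scaling used here, the 95% intervals of the 8 fold changes all included 1 and lay between 0.737 and 1.41. These limits hold for this scaling only, since the differences move with it. The log2 difference of miR-93, for instance, was 0.13 here and 0.43 without scaling.

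Directions among the members depended on the scaling. With the scaling used here, 7 of 8 members had a lower mean in the high fat group and 1 a higher one, where 79.8% of all tested miRNAs were lower (154 of 193) and 20.2% higher, and the median log2 difference was -0.05 for the members and -0.17 for all tested. Without any scaling, 8 of 8 members were higher, beside 153 of 193 tested, with a median of 0.26 beside 0.14 for all tested. Quantile normalization also put 8 of 8 higher, beside 93 of 193 tested, with a median of 0.11 beside -0.00086 for all tested. So did the 75th percentile taken over all miRNAs of the array, beside 99 of 193 tested, with 0.12 beside 0.0041. With the scaling used here, 8 of 8 members lay above the median of all tested miRNAs, by 0.01 (miR-19b) to 0.29 (miR-93) on the log2 scale. No scaling and the 75th percentile over all miRNAs differ from it only by 1 factor per array. Apart from the floor, such factors move all miRNAs alike, so these settings had to give the same distances from the median. Only quantile normalization could differ, and there too 8 of 8 were above the median. This is a description of 8 means that share their arrays, and no member passed the test on its own under any of the 4 scalings. Leaving out single rats also moved the directions, since 7 of 8 members were higher without the control rat C60, without the control rat H10 or without the high fat rat A37, and 4 of 8 without C73, while without H3 6 of 8 stayed lower.

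**Figure D2:**
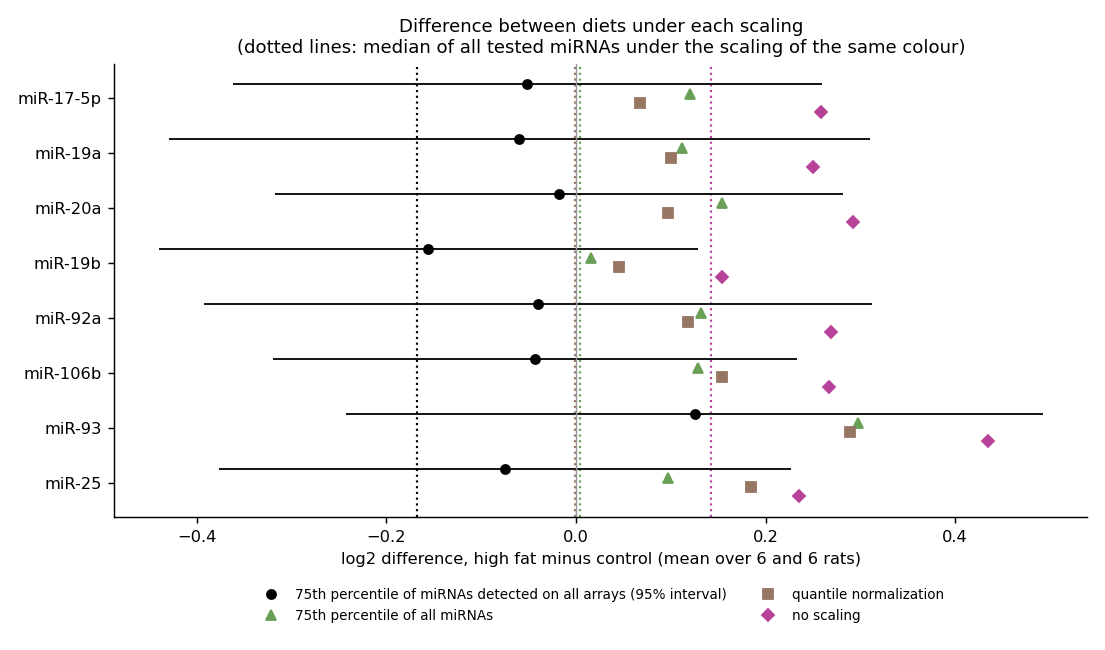
Mean log2 difference between the 6 offspring of high fat-fed dams and the 6 control offspring for each detected member (horizontal axis), under 4 scalings shown by symbol and colour, with the 95% interval of the limma fit for the scaling used in the text (black) and dotted lines at the median of all 193 tested miRNAs under each scaling. The black points lie below 0 except that of miR-93 at 0.13, the points of the other scalings lie above 0, and every black interval includes 0.

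The comparison of the diets was also made within each slide. On the first slide the log2 differences of the members ran from -0.28 (miR-19b) to 0.31 (miR-93), with 4 of 8 higher in the high fat rats. On the second slide they ran from -0.25 (miR-92a) to 0.06 (miR-19a), with 7 of 8 lower. The median on the first slide was 0.04 for the members and -0.18 for all tested miRNAs. On the second it was -0.07 and -0.20, so there the members were lowered less than the median of all tested. The sign turned between the slides in 5 of 8 members, which were miR-92a (0.17 and -0.25), miR-25 (0.08 and -0.23), miR-17-5p (0.11 and -0.21), miR-93 (0.31 and -0.06) and miR-19a (-0.18 and 0.06), with 3 rats of each group per slide. The difference between the slides in the diet comparison was not tested, and turned signs were not counted over all tested miRNAs. H3 lay on the first slide, and the differences there are not given without it. Over both groups, 8 of 8 members had a lower mean scaled signal on the second slide, with a median of -0.22 on the log2 scale. Among all tested miRNAs, 112 of 193 were lower there and the median was -0.07. The 75th percentile that divides the signals ran higher on the second slide, from 1230 to 1911 against 864 to 1403. The slides were not compared without scaling. With slide as a block in the fit, limma still called 0 members.

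Differences between 2 members on the same array do not depend on the array's brightness, and 8 such pairs were compared. The difference of miR-106b minus miR-93 was 2.67 ± 0.19 (SD, n = 6) on the log2 scale in control rats and 2.51 ± 0.24 (SD, n = 6) in high fat rats, lower by 0.17 (exact two-sided permutation p = 0.225, 0.900 after Benjamini-Hochberg adjustment over the 8 pairs). That of miR-93 minus miR-25 was -1.93 ± 0.09 and -1.73 ± 0.29, a difference of 0.20 (exact permutation p = 0.130, adjusted 0.900). Both rest on miR-93 in H3, without which they were -0.07 (exact permutation p = 0.452) and 0.10 (exact permutation p = 0.240). The first had an exact permutation p of 0.0152 without A89, and the second one of 0.0455 without C51. These 2 values are not adjusted and include H3. No other pair had such a p under 0.05 when a single rat was left out. The other 6 pairs differed between the diets by -0.03 to 0.10 on the log2 scale, with an adjusted exact permutation p of 0.961 each. The pair of closest sequence, miR-19a minus miR-19b, was -3.04 ± 0.18 in control rats and -2.95 ± 0.15 in high fat rats (SD, n = 6 each).

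Outside the clusters, the array held 4 further miRNAs with a seed of these families. miR-20b-5p of the chromosome X cluster, whose sequence differs from that of miR-17-5p and of miR-20a at 2 of 23 bases each, was detected on all 12 arrays.
miR-20b-5p: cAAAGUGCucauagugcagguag
Its lowest, median and highest signals were 86.5, 103 and 121 in control rats and 99.7, 105 and 111 in high fat rats. The high fat rats again lay inside the control range, and the log2 difference was 0.03 (standard error 0.12, limma adjusted p = 0.968). miR-92b was detected in 1 control rat, A110, at 30.2 after scaling (two-sided Fisher's exact test, p = 1). miR-363, the last gene of the chromosome X cluster, and miR-32 were detected on 0 arrays.

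Single rats lay high or low in several members at once. The mean of the centred log2 values of the 5 detected members of miR-17-92 ran from -0.32 in A37 to 0.30 in C73, and that of the 3 members of miR-106b-25 from -0.32 in A37 to 0.36 in H3. A37 had the lowest scaled signal of all 12 rats in 5 of 8 members, and A75, a control rat, in the other 3. The array of A37 also had the largest 75th percentile, 1911, by which its signals were divided. Before scaling, its listed miR-106b of 571 was the highest of the 12 rats, so its low place holds for scaled signals. C73 had the highest signal in 4 members, H3 in 2, and H1 and A89 in 1 each. Rats at the low end came from both diets and both lay on the second slide. C73 also had the highest sum of the liver and epithelium markers among control rats, at 529 against a control median of 121, and its part in the high values of C73 was not tested.

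**Figure D3:**
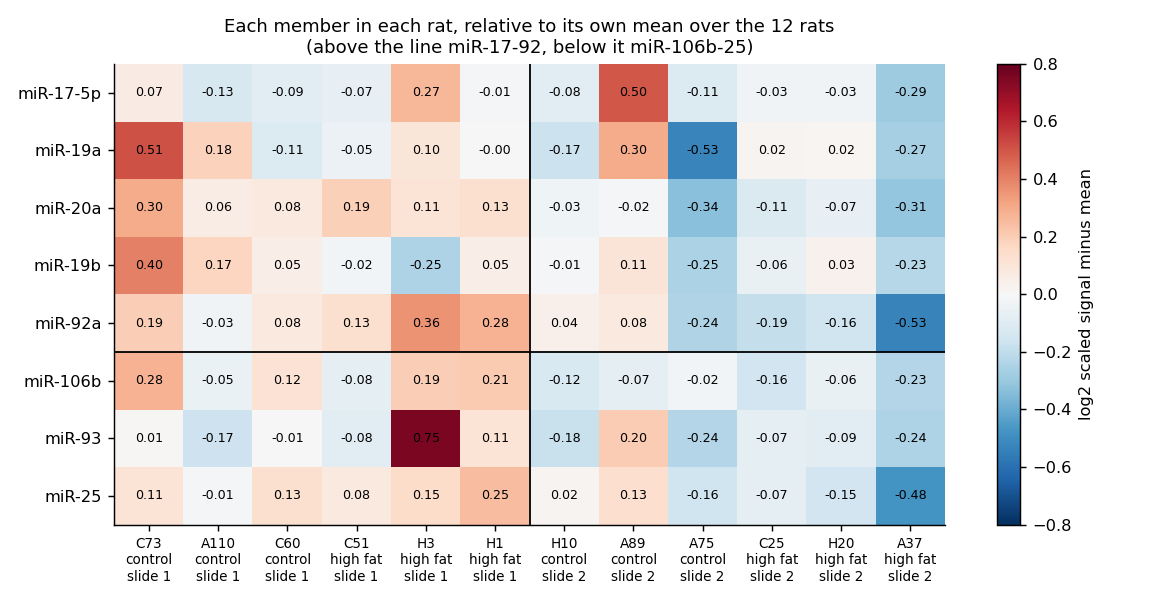
Log2 scaled signal of each detected member (rows, miR-17-92 above the horizontal line and miR-106b-25 below it) in each of the 12 rats (columns, first slide left of the vertical line), minus the member's mean over the rats. Red columns such as C73 and blue columns such as A75 and A37 run through most members, and H3 is high in miR-93 and miR-92a but low in miR-19b.

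Whether members of a cluster or of a seed family vary together was read from the rats themselves. Over the 12 rats, Pearson's r of log2 signals was above 0 in 27 of the 28 pairs of members, with a median of 0.569 (0.652 without H3), where the median over all 13041 pairs of the 162 miRNAs detected on all arrays was 0.222 (0.234 without H3). This is a description, since pairs share rats, arrays and scaling. Pairs within miR-17-92 had a median r of 0.574 (0.643 without H3), pairs within miR-106b-25 of 0.568 (0.683) and pairs across the clusters of 0.505 (0.639). Pairs with the same seed had a median of 0.627 (0.621 without H3), and those that share the seed across the clusters of 0.687 (0.678). With different seeds, the median was 0.574 within the clusters (0.692 without H3) and 0.480 across them (0.632). The order of these medians was not the same with and without H3, and their differences were not tested. After adjustment over the 28 pairs, 10 had a permutation p under 0.05. Their lowest r was 0.686, which 11 of the 28 member pairs reached, beside 11.8% of all 13041 pairs. The number was 27 without scaling and 2 with quantile normalization, and it fell to 3 without the high fat rat A37, to 5 without C73 and to 6 without C60 or without H1. It rose to 14 without H3 and to 14 without A89. For these settings the share over all pairs was not computed. Without scaling, the factor of each array moves all miRNAs alike, so the 27 cannot be read as particular to the members. Within the slides, the median over the 28 pairs was 0.400 on the first, close to the 0.337 of all pairs there, and 0.748 on the second, beside 0.338 for all pairs.

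**Figure D4:**
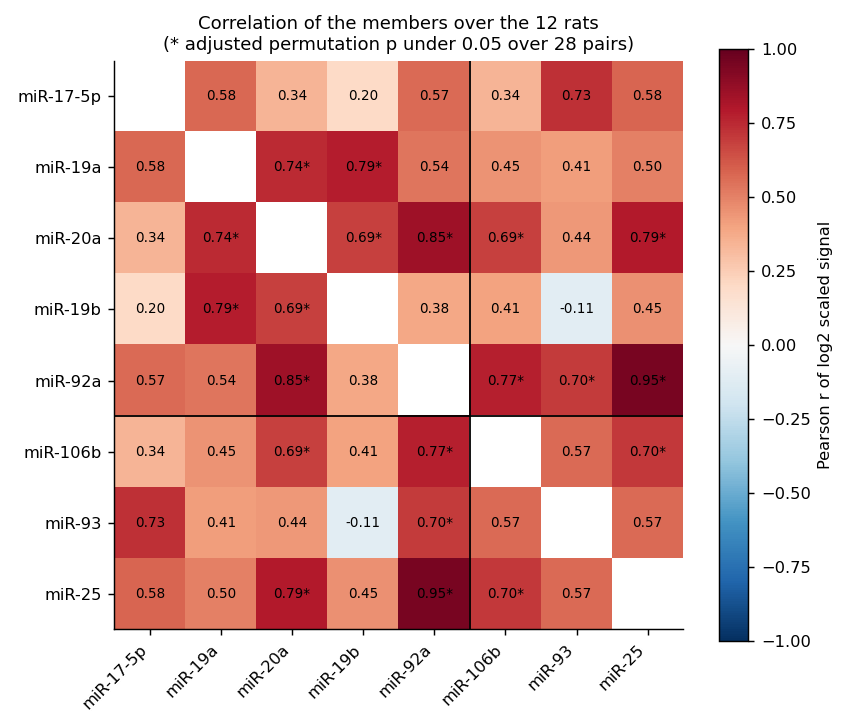
Pearson's r of log2 scaled signal over the 12 rats for each pair of the 8 detected members, with lines between miR-17-92 (first 5) and miR-106b-25 (last 3) and stars for a permutation p under 0.05 after adjustment over the 28 pairs. The highest value is that of miR-92a with miR-25 at 0.949, across the clusters, and the 1 value below 0 is that of miR-19b with miR-93.

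The closest pair was miR-92a and miR-25, which share their seed but come from different clusters. Their r was 0.949 and Spearman's rho 0.923 (adjusted permutation p = 0.00028 and 0.0017 over 28 pairs, the raw permutation p for r of 1e-05 being the smallest that 100000 permutations can give). The r was 0.882 without A37 and A75, 0.771 and 0.973 within the slides, 0.919 in control and 0.962 in high fat rats, and 0.912 to 0.971 when single rats were left out. Under quantile normalization it was 0.754 and no longer passed (adjusted permutation p = 0.0814). On a single array the difference miR-92a minus miR-25 varied with an SD of 0.09 over the 12 rats, against SDs of 0.25 for miR-92a and 0.19 for miR-25 alone (all on the log2 scale).

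A second pair inside miR-17-92, miR-20a and miR-92a, had an r of 0.850 and a rho of 0.909 (adjusted permutation p = 0.0046 and 0.0017). It passed under all 14 alternatives tried, with an r of 0.720 without A37 and A75. It did not hold within both slides, r being 0.274 in the first and 0.826 in the second. The same was seen for miR-20a with miR-25, with an r of 0.793 and a rho of 0.769 over all rats (adjusted permutation p = 0.0119 and 0.0213) but an r of 0.108 in the first slide and 0.764 in the second, and this pair did not pass without A37 or under quantile normalization.

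For the near-identical miR-19a and miR-19b, r was 0.786 and rho 0.643 (adjusted permutation p = 0.0190 and 0.0606). The relation rests in part on C73 and A75, the rats at the ends of the control range, without which r was 0.481, and it did not pass when C73 or A37 was left out. Within the slides r was 0.686 and 0.904, and without H3, where miR-19a was the highest and miR-19b the lowest of the high fat group, it was 0.921.

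Another pair of 1 seed family from different clusters was miR-17-5p and miR-93, with an r of 0.728 and a rho of 0.867 (adjusted permutation p = 0.0618 and 0.0034). The r was 0.728 without H3 and A89, and 0.933 and 0.964 within the slides. Without H3 alone it was 0.822 (adjusted permutation p = 0.0028), and without A89 alone 0.884 (adjusted permutation p = 0.0069). Under quantile normalization it was 0.70 (adjusted permutation p = 0.0814). By contrast, miR-17-5p and miR-20a, neighbours in the cluster with the same seed, had an r of 0.343 and a rho of 0.482 (adjusted permutation p = 0.308 and 0.168), and 0.679 without H3 and A89. The difference between these correlations was not tested.

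**Figure D5:**
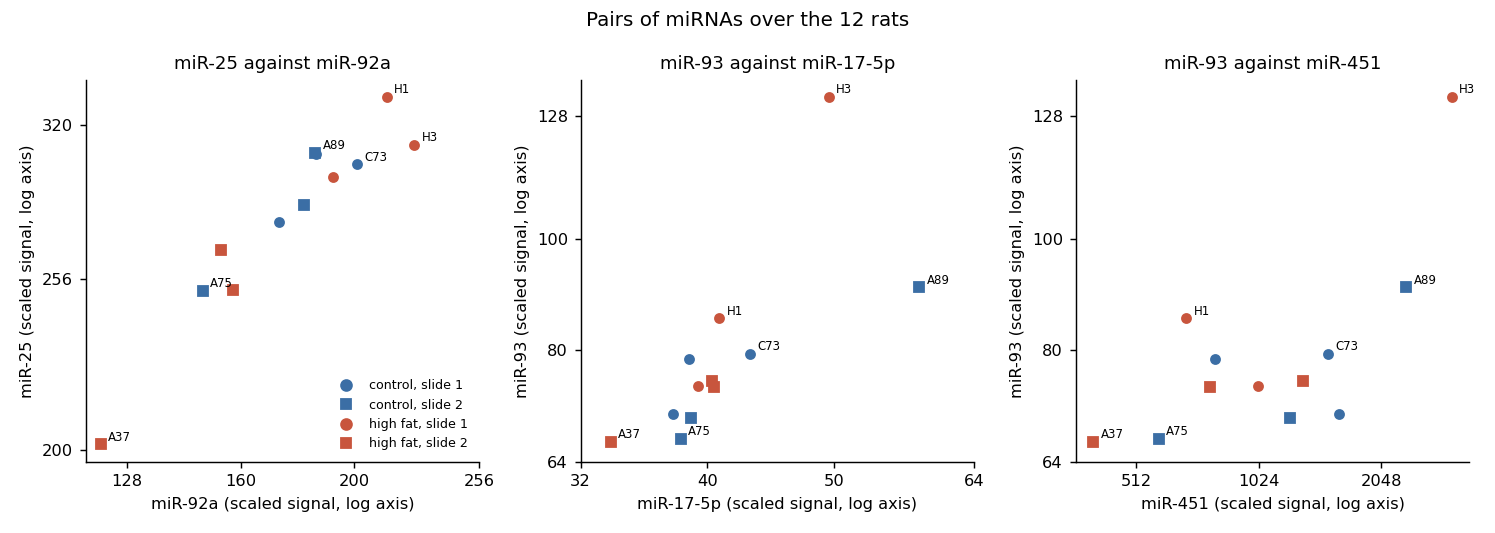
Scaled signals of 3 pairs of miRNAs over the 12 rats (all axes log scaled, array units), with colour for the diet of the dam and circles or squares for the slides. miR-25 follows miR-92a closely from A37 to H1 and H3, whereas in the panels of miR-93 the rats H3 and A89 lie at the upper right, with the highest signals of the red cell miR-451 at 3054 and 2363.

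Red cell miRNAs differed between the rats and, over all 12 rats, moved with several members. miR-451 and miR-144 are made in red cell precursors and mark red cells. Scaled miR-451 was at 3054 in H3 and 2363 in A89, the rats with the highest miR-93 and miR-17-5p. It was at 402 in A37, the rat lowest in 5 members after scaling. The summed red cell signal was 643 to 2636 in control and 458 to 3295 in high fat rats, with both markers detected on all 12 arrays. Against miR-451, r was 0.774 for miR-17-5p, 0.689 for miR-93 and 0.688 for miR-19a (rho 0.559, 0.608 and 0.804, adjusted permutation p for r of 0.0160, 0.0338 and 0.0338, and for rho of 0.168, 0.160 and 0.0186, over the 8 members). The lowest r were those of miR-19b at 0.290 and miR-106b at 0.301, and without H3 alone these were 0.68 and 0.12. Without H3 and A37, r with miR-451 was 0.629 for miR-17-5p, 0.359 for miR-93 and 0.741 for miR-19a. Without H3 alone it was 0.718, 0.509 and 0.752 in the same order. Within the slides it was 0.70 and 0.87 for miR-17-5p, 0.63 and 0.86 for miR-93, and 0.47 and 0.79 for miR-19a. It turned between the slides for miR-25 (-0.36 and 0.93) and miR-19b (-0.26 and 0.84). Against miR-144, r was 0.693 for miR-17-5p, 0.664 for miR-19a and 0.538 for miR-93 (rho 0.629, 0.804 and 0.587, adjusted permutation p for r of 0.0375, 0.0616 and 0.128, and for rho of 0.130, 0.0192 and 0.133). The r with miR-144 ran from 0.153 to 0.265 for the other 5 members. The highest of these, that of miR-19b, was 0.51 without H3. Without H3 and A89, r with miR-144 was 0.387 for miR-17-5p, 0.614 for miR-19a and 0.118 for miR-93. How closely the other miRNAs of the array went with miR-451 or miR-144 is not given here. Whether these relations are particular to the members therefore cannot be read from them. The relations were computed after the values had been seen, and the part of red cells in the members' signals was not tested. In such whole muscle samples, fewer cells of a type and less of a miRNA per cell cannot be told apart.

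Among the 153 miRNAs detected on all arrays that were neither members nor the seed-mate miR-20b-5p, the one whose pattern over the 12 rats was most like the mean of the miR-17-92 members was miR-15b (r = 0.838, rho = 0.804), followed by miR-16 (r = 0.764) and miR-30b-3p (r = 0.758). The same miR-15b was also most like the mean of the miR-106b-25 members (r = 0.855, rho = 0.783), followed by miR-28 (r = 0.820, rho = 0.657) and miR-1224 (r = 0.785, rho = 0.524), both of them highest in H3. These were picked as the highest of 153 values and have no test. Without H3, r was 0.881 for miR-15b with miR-17-92 and 0.788 with miR-106b-25, 0.773 for miR-16, 0.784 for miR-30b-3p, 0.676 for miR-28 and 0.636 for miR-1224. Signals of miR-15b ran from 175 in A37 to 489 in H3, the same ends as those of the miR-106b-25 mean, and its log2 difference between the diets was -0.15 (limma adjusted p = 0.805).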

How the data were processed

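Soleus RNA of 12 rat offspring was labelled with Cy3 and hybridised to 1-colour Agilent rat miRNA arrays. The authors deposited, for every array, the intensity that the scanner software summed for each miRNA, an error and a detection flag. Background had been subtracted and spots combined, without normalization between arrays; the deposited value table of the series held the same intensity values (largest difference 0). The software version is not given in the sources used here. Undetected miRNAs are listed at 0.1. Groups came from the sample labels, and all 12 labelled rats were used although the methods count fewer high fat offspring. Slides were read from the array identifiers.

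After removal of 22 control rows, each array was divided by its 75th percentile over the miRNAs detected on all arrays and multiplied by 1 common factor. A floor of 5.17 was set before log2 was taken. The diets were compared with limma 3.58.1 (R 4.3.3), high fat minus control, for the 193 miRNAs that 6 or more arrays detected, p-values being adjusted over all 193 (Benjamini-Hochberg). The limma script was tested on simulated data. Single values were compared with exact permutation tests (Python 3.11.15, scipy 1.17.1, numpy 2.4.6), detection with Fisher's exact test, and correlations with 100000 permutations. Every member was named, whatever its value, together with partner strands, seed-mates and the 3 miRNAs most like each cluster. The members and lists were chosen with earlier results of these data known. As alternatives, other scalings, floors and detection filters were tried, and slide or label letter as a block, array weights, the methods' t-test, the series' value table and the omission of single rats; the red cell correlations were added after seeing the data. Sequences and positions are from RefSeq (GRCr8). Precision is limited by the number of arrays, and p-values measure the spread between these rats, whose litters are not labelled.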

Additional observations from a re-analysis of the deposited data

Results flagged for a closer look

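For the members detected on every array, a single rat in 2 of 16 groups lay so far from the other 5 of its group that its gap to the nearest one took up most of the group's range. The limit was Dixon's 95% critical value, by which chance flags about 1 in 20 groups, and over all miRNAs detected on every array 19 of 324 groups had such a rat. miR-17-5p was at 58.1 in the control rat A89, with the next control rat at 43.1 and a gap of 0.733 of the range. miR-93 was at 133 in the high fat rat H3, with the next at 85.4 and a gap of 0.718 of the range; its listed signal was 129 with a scanner error of 12.1. miR-18a met the same limit at 11.2 in H3, but its other 5 high fat rats were at the floor, so that its gap had to be the whole range. A89 and H3 had the highest red cell signals of their groups, at 2636 and 3295, and the part of red cells in these values was not tested.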

How the results depend on the processing

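No member reached an adjusted or an unadjusted p under 0.05 in limma under any of the 24 alternatives, the lowest unadjusted p being 0.0618 and the lowest adjusted p 0.486. Directions depended on the scaling, as the report gives. With the 75th percentile over all miRNAs, the log2 differences turned to 0.12 (miR-17-5p), 0.11 (miR-19a), 0.016 (miR-19b), 0.15 (miR-20a), 0.13 (miR-92a), 0.13 (miR-106b) and 0.097 (miR-25). With quantile normalization they were 0.068, 0.10, 0.045, 0.097, 0.12, 0.15 and 0.18 in the same order, and with no scaling 0.26, 0.25, 0.15, 0.29, 0.27, 0.27 and 0.23. Leaving out single rats moved them between -0.082 and 0.049 (miR-17-5p), -0.17 and 0.036 (miR-19a), -0.087 and 0.096 (miR-20a), -0.10 and 0.10 (miR-92a), -0.088 and 0.076 (miR-106b), and -0.13 and 0.052 (miR-25). miR-19b stayed below 0 (-0.22 to -0.040) and miR-93 above it (0.070 to 0.24) without single rats. miR-93 was also 0.30, 0.29 and 0.43 under the 3 scalings in the order above, 0.046 with label letter as a block and 0.0084 with array weights. Within arrays, quantile normalization turned miR-106b minus miR-25 to -0.030 and miR-92a minus miR-25 to -0.066. Without single rats the first ran from -0.013 to 0.069, the second from -0.0035 to 0.062, miR-17-5p minus miR-106b from -0.052 to 0.10, minus miR-20a from -0.083 to 0.066 and minus miR-92a from -0.061 to 0.072. The count of these pairs with an exact permutation p under 0.05 ran from 0 to 1, with 1 each without C51 (miR-93 minus miR-25) and without A89 (miR-106b minus miR-93). The 10 correlated pairs of members became 27 without scaling, 2 with quantile normalization and 3 to 14 without single rats. The share over all pairs was not computed for these settings. The correlation of miR-19b with miR-93 turned to 0.55 without scaling, 0.011 with quantile normalization and -0.26 to 0.55 without single rats. Quantile normalization also turned miR-17-5p with miR-19b (-0.26), miR-17-5p with miR-20a (-0.036) and miR-19b with miR-25 (-0.072). The causes were not tested. Members near the floor, here miR-18a, have no measurable level.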
